A study of Mus musculus with 12 samples.

Results

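Epithelial identity transcription factors were followed across tumours of 3 mouse lung adenocarcinoma lines. The 10 genes, chosen by name, were the grainyhead factors Grhl1, Grhl2 and Grhl3, the Ovo-like zinc finger factors Ovol1 and Ovol2, the epithelial ETS factors Elf3, Elf5 and Ehf, and the Krüppel-like factors Klf4 and Klf5. All 10 were among the 18193 genes tested and were read by 21 probe sets, a probe set being a group of short array probes aimed at one stretch of a transcript. The lines came from p53R172H∆g/+ K-rasLA1/+ mice, which carry a mutant p53 allele and a latent oncogenic K-ras allele, so all 3 share that background. Line 393P was grown from a primary lung tumour and 393LN from a mediastinal lymph node of one mouse, and 344SQ from a subcutaneous site of another. The labels call 344SQ highly metastatic, 393LN intermediately metastatic and 393P non-metastatic. Each line is a mass population rather than a clone, and each was derived once. With 4 arrays for each line, the 12 arrays measured RNA of tumours that had been grown in syngeneic mice and dissected. The labels used here give neither the age of the hosts nor whether the 4 samples of a line were separate tumours, so p-values measure the spread between these samples. In 344SQ, line, mouse of origin and metastatic label cannot be told apart.

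Grainyhead factors bind the regulatory regions of epithelial junction genes and keep them active, and Grhl2 is known for opposing the repressor Zeb1. Ovol1 and Ovol2 are repressors that likewise restrain Zeb1 and hold cells in an epithelial state. Elf3, Elf5 and Ehf bind GGAA-type ETS sites and are largely restricted to epithelia, and Klf4 and Klf5 bind GC-rich and CACCC sites, Klf5 in proliferating and Klf4 in differentiating epithelium. Klf4 is also expressed by endothelium and by monocytes.

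In the RefSeq annotation of GRCm38.p6, Grhl1 lies at chr12:24572232-24617391, Grhl2 at chr15:37232821-37363569 and Grhl3 at chr4:135541887-135573632. Ovol1 lies at chr19:5549137-5560575 and Ovol2 at chr2:144305175-144332080. Elf3 lies at chr1:135253574-135258472, and Ehf (chr2:103263431-103303275) and Elf5 (chr2:103412098-103450989) are separated by 108.8 kb. Klf4 lies at chr4:55527137-55532475 and Klf5 at chr14:99298691-99313412. RefSeq promoter windows were matched for 6 of the 10 genes, and those of Grhl2, Ovol1, Ehf and Klf5 were not used here. The windows of Elf3, which fell in 344SQ, and of Klf4, which did not pass in any comparison, are printed as one example of each. Each is the 250 bases before the annotated start, minus strand, 5′ to 3′, from GRCm38.p6, with every match to a searched motif in capitals.
Elf3, chr1:135258473-135258722: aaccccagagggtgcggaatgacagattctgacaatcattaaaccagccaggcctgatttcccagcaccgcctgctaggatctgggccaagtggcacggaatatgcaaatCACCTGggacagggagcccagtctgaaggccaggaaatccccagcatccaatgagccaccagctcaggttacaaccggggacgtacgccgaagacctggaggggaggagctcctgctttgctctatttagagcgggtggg
Klf4, chr4:55532476-55532725: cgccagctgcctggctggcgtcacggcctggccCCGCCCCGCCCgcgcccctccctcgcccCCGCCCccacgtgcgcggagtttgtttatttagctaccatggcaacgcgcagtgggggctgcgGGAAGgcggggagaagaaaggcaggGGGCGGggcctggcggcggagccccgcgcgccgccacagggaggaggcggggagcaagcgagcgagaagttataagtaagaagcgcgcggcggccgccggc
The motifs were the grainyhead palindrome AACCGGTT, the Zeb and Snail E-box CACCTG, the ETS core GGAAG and the Klf and Sp box GGGCGG, searched on both strands. The grainyhead motif was in none of the 8 windows matched. Elf3 held 1 E-box, 140 bases before the start, and no other match. Klf4 held 4 GC boxes, of which the pair at 217 and 212 bases overlap, and 1 ETS core at 126 bases. Among 32851 windows of this length 0.116% held at least 1 grainyhead motif, 17.2% an E-box, 64.1% an ETS core and 32.7% a GC box. The E-box in Elf3 and the presence of a GC box in Klf4 are thus matches that many promoters share. Windows with as many as 4 GC boxes were not counted.

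Levels are given as log2(intensity + 16), on which the lowest deposited value is 4.09. A fold near that floor is therefore understated. Array medians of log2 intensity lay between 7.19 and 7.29. RNA integrity, read from actin probes as 3′ signal over 5′ signal, set 393P replicate 1 apart at 1.47, where the next highest array had 1.19. Epithelial keratin and cadherin genes were bright in all 3 lines, with Krt8 at 13.64 to 14.07, Krt18 at 14.08 to 14.38 and Cdh1 at 13.18 to 13.70. Other tumour epithelium markers were not level. Epcam, Cldn4 and Cldn7, 3 of the 8 on that list, fell in 344SQ against each of the other lines. Krt7 and Krt19 did not pass. List means were 11.56 to 12.18 in 344SQ, 13.16 to 13.48 in 393LN and 13.18 to 13.57 in 393P. The same 3 genes are counted below among the 35 epithelial target genes, so the lists overlap. No marker of the cell types listed was at the floor on all arrays. A dim marker such as Scgb1a1, with line means of 4.50 to 4.80, also clears that bar, so it does not show a cell type to be present. Tissue of the host was part of each tumour. In such bulk samples, fewer cells of a type and less RNA per cell cannot be told apart.

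The comparison of 344SQ with 393P set the highly metastatic line against the non-metastatic one. Taking for each gene its brightest probe set over the 12 arrays, Ovol1, Ovol2 and Elf3 were lower in 344SQ and Klf5 was higher, while the other 6 genes did not pass (limma, Benjamini-Hochberg adjusted p under 0.05 over all genes tested). Across all genes 5.62% were lower and 4.86% higher, against 3 and 1 of these 10. The median log2 change of the 10 was -0.06 beside -0.00 over all genes. Grhl2 and Ehf, which did not pass, gave another result on other probe sets: Grhl2 was 18.5-fold lower on one, and Ehf 14.9-fold and 10.2-fold lower on a pair. Over single probe sets 7 of the 21 were lower and 1 higher, where 3.77% and 3.85% of all probe sets were, and the 7 belonged to Grhl2, Ovol1, Ovol2, Elf3 and Ehf.

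The comparison of 344SQ with 393LN, the nodal line, had 4 genes lower (Grhl1, Ovol1, Ovol2 and Elf3) and Klf5 higher, where 6.92% of all genes were lower and 3.99% higher. The median log2 change of the 10 was -0.17 beside -0.02 over all genes. Over single probe sets 7 were lower and 2 higher, against 4.66% and 2.76% of all probe sets. The 344SQ arrays enter both comparisons, so the results are not independent.

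Between 393LN and 393P, the nodal and primary lines of the same mouse, 0 of the 10 genes passed in limma's test, where 0.698% of all genes were lower and 1.75% higher. At an unadjusted p under 0.05 (limma) there was 1, Klf4, and the share of all genes at that p is not given here. By adjusted p, limma with a trended robust prior or on the pair of lines alone also gave 0. None of the 21 probe sets passed, where 0.432% were lower and 1.38% higher. The median log2 change of the 10 genes was -0.21 beside 0.01 over all genes.

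**Figure D1:**
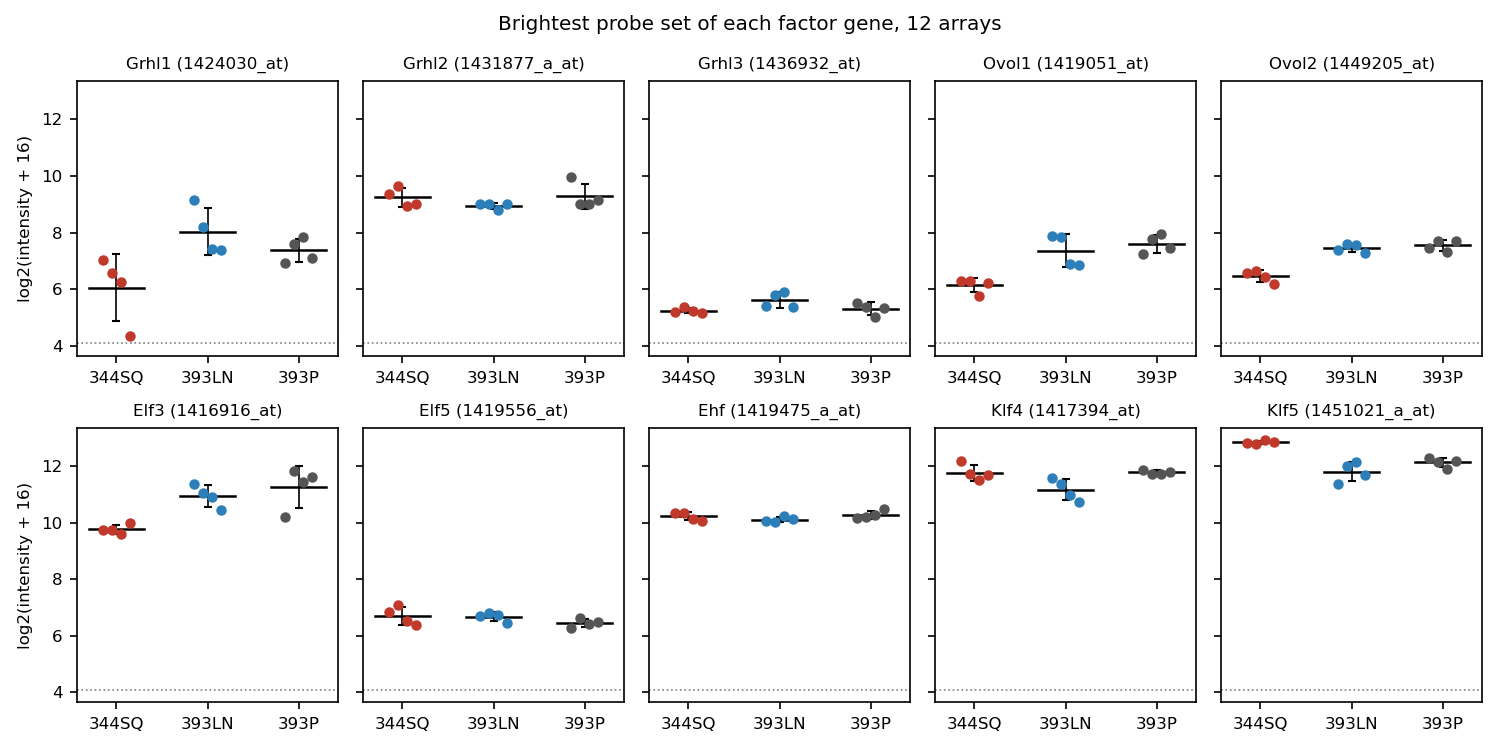
Level of the brightest probe set of each of the 10 genes on 12 arrays, as log2(intensity + 16); points are arrays, bars the mean and its SD (n = 4 per line), and the dotted line the floor of 4.09. Ovol1, Ovol2 and Elf3 are lowest and Klf5 highest in the 344SQ column, and the probe sets of Grhl2 and Ehf shown here lie at like levels in all 3 lines.

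Grhl2, which sustains junction gene expression, was read by 4 probe sets that did not move together. The brightest, 1431877_a_at, was at 9.38, 9.64, 8.95 and 9.01 in 344SQ, at 9.01, 9.0, 8.80 and 9.02 in 393LN, and at 9.95, 9.03, 9.01 and 9.14 in 393P. The lines overlapped, and the log2 change of 344SQ against 393P was -0.04 ± 0.21 SE (n = 4 per line, limma adjusted p = 0.950, 95% interval -0.50 to 0.43). Probe set 1427046_at was at 6.14, 6.71, 5.84 and 5.90 in 344SQ, at 10.87, 10.14, 9.70 and 9.46 in 393LN, and at 10.37, 10.31, 10.40 and 10.36 in 393P. The highest 344SQ value was 6.71 and the lowest of the other lines 9.46. Its change was -4.21 ± 0.27 against 393P (limma adjusted p = 4.35e-06 over 34945 probe sets) and -3.90 ± 0.27 against 393LN, 18.5-fold and 14.9-fold lower (adjusted p = 8.36e-06 for the second). The other 2 were dim: 1431878_at averaged 4.47 in 344SQ and 4.98 in 393P, a change of -0.51 (limma adjusted p = 0.0259) that ended without 344SQ replicate 1 or 3 or 393P replicate 2 or 3 (adjusted p up to 0.0967 over the alternatives), and 1452643_at was at 4.09 to 5.54 on all arrays and did not pass.

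The difference between the changes on 1427046_at and on the brightest Grhl2 probe set was -4.17 against 393P and -4.18 against 393LN. Both had an exact two-sided permutation p of 0.0286, the smallest that 4 against 4 allows. After Benjamini-Hochberg adjustment over the 33 such differences computed it was 0.118, and none of the 33 passed. A difference at the smallest p passes this adjustment only if many others of the 33 reach it too. Not passing therefore does not show that the probe sets agree. The table used here does not say which transcripts each probe set detects, and which of them follows Grhl2 RNA was not tested.

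Ehf, an ETS factor of differentiated epithelia, showed the same split among its 4 probe sets. The brightest, 1419475_a_at, lay between 10.01 and 10.49 on all 12 arrays, with a change against 393P of -0.05 ± 0.11 (limma adjusted p = 0.842, 95% interval -0.29 to 0.18). Probe set 1451375_at was at 5.52, 6.49, 5.61 and 5.36 in 344SQ, at 10.25, 9.72, 10.05 and 9.07 in 393LN, and at 9.21, 9.99, 9.80 and 9.55 in 393P. Probe set 1419474_a_at was at 5.55, 5.67, 5.21 and 5.11 in 344SQ, at 8.83, 8.40, 8.55 and 7.56 in 393LN, and at 8.73, 8.92, 8.70 and 8.62 in 393P. On both, 344SQ lay below the other lines with no overlap. The changes against 393P were -3.89 ± 0.29 and -3.35 ± 0.23 (limma adjusted p = 1.51e-05 and 7.66e-06), and those against 393LN were -4.03 and -2.95 (adjusted p = 1.15e-05 and 2.27e-05). The fourth probe set, 1447760_x_at, had changes of -0.27 and -0.37 that did not pass (adjusted p = 0.708 and 0.543). Against the brightest probe set the differences in change were -3.84 and -3.30 for 393P, again with an exact permutation p of 0.0286 and 0.118 after adjustment. The limit given for the Grhl2 differences holds here too.

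**Figure D2:**
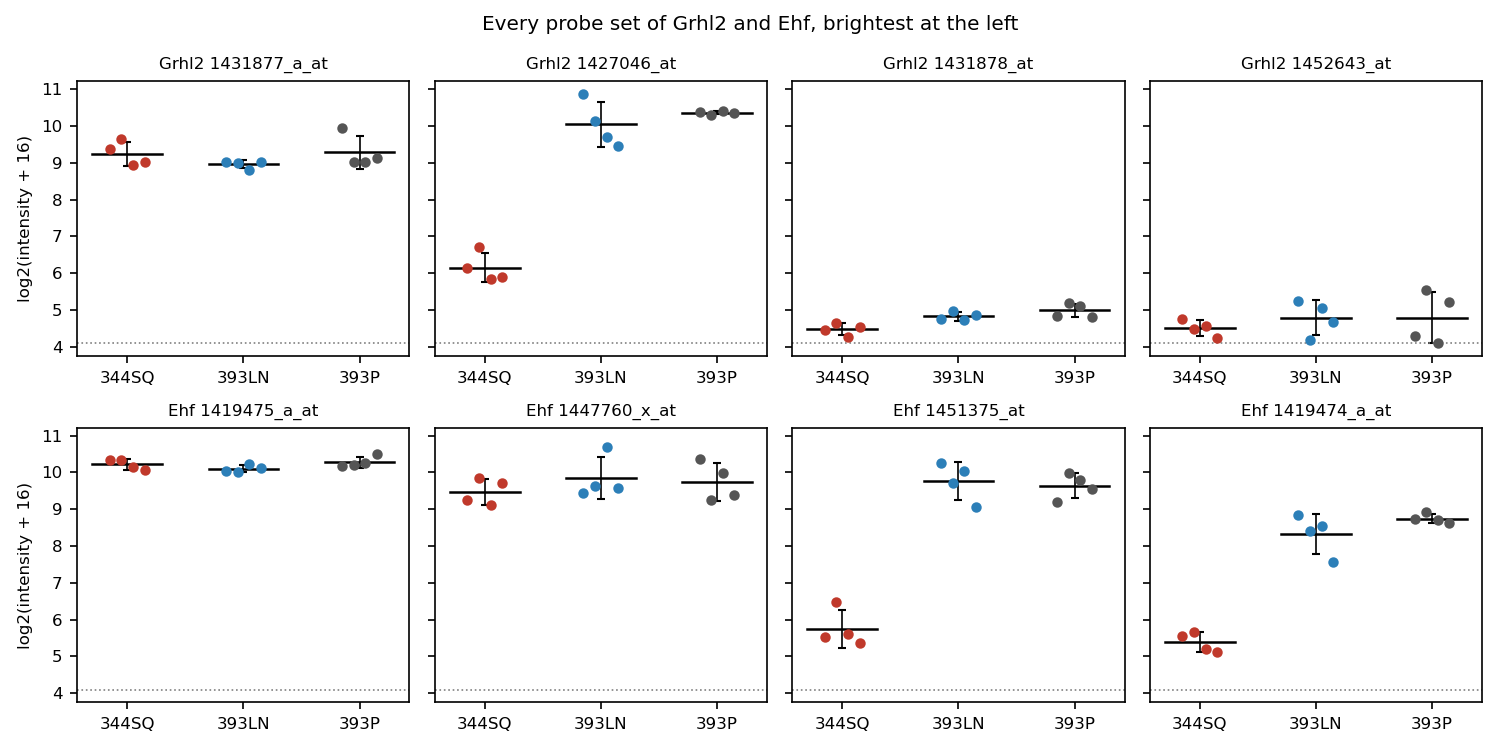
Level of every probe set of Grhl2 (upper row) and Ehf (lower row) on 12 arrays, as log2(intensity + 16), with line means and SD (n = 4 per line) and the floor dotted. On Grhl2 1427046_at and on Ehf 1451375_at and 1419474_a_at the 344SQ arrays sit between 5.11 and 6.71 and the 393LN and 393P arrays between 7.56 and 10.87, and on the brightest probe sets at the left the lines overlap.

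Grhl1, which supports desmosomal adhesion in skin, had 1 probe set. It was at 7.05, 6.57, 6.27 and 4.35 in 344SQ, at 9.15, 8.19, 7.44 and 7.38 in 393LN, and at 6.94, 7.59, 7.84 and 7.12 in 393P. The lowest value, on 344SQ replicate 4, was close to the floor, and 344SQ and 393P overlapped. The change was -1.98 ± 0.53 against 393LN (limma adjusted p = 0.0341) and -1.31 ± 0.53 against 393P (adjusted p = 0.154). The call against 393LN ended without 344SQ replicate 2 or 3 or 393LN replicate 1 or 2, with a pseudocount of 1 and in a fit of these 2 lines alone, with adjusted p up to 0.0842 over these settings. Without 344SQ replicate 4 the changes were -1.41 against 393LN (adjusted p = 0.0489) and -0.74 against 393P (adjusted p = 0.312).

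By the mean absolute difference of centred log2 levels over 12 arrays, the genes nearest to Grhl1 were Mx1 (0.325), Irf1 (0.361) and Ifi202b (0.362), all known as interferon-induced genes. On the 344SQ arrays Mx1 was at 5.12, 5.46, 5.18 and 4.13, Irf1 at 12.24, 10.79, 10.50 and 9.17, and Ifi202b at 10.22, 9.46, 9.37 and 8.94. Each was lowest of all 12 arrays on 344SQ replicate 4, as Grhl1 was. They were picked for their likeness to Grhl1 over these same arrays, which largely fixes that shared low point. Whether interferon signalling had a part in the Grhl1 values was not tested.

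**Figure D3:**
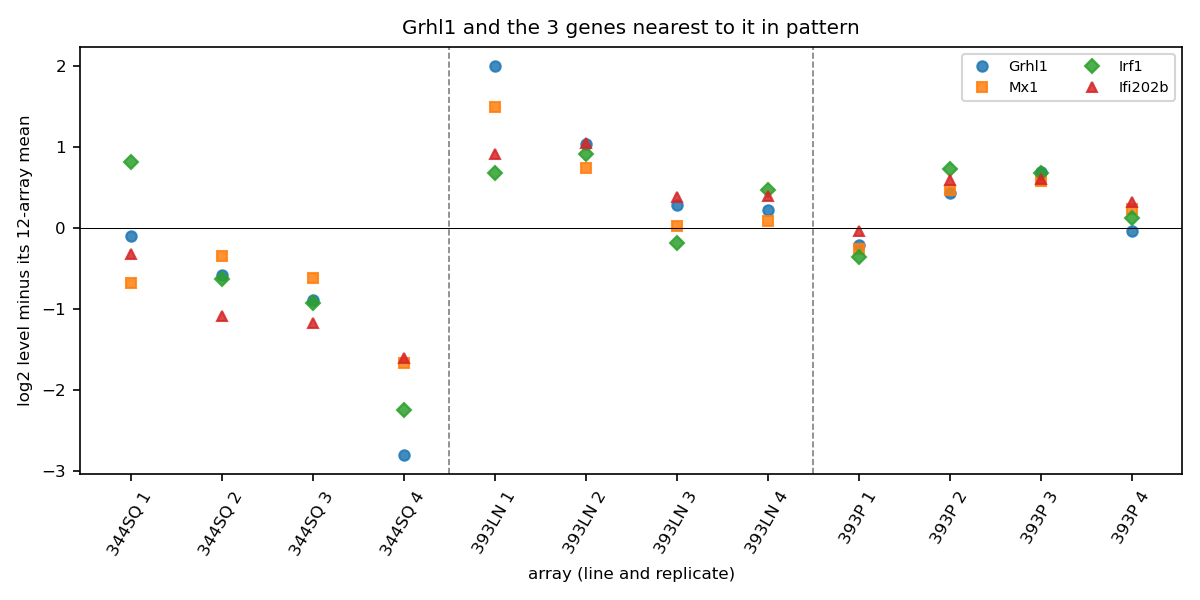
Level of Grhl1 and of Mx1, Irf1 and Ifi202b on each of the 12 arrays, each as its log2 level minus its mean over the arrays; dashed lines part the lines. All 4 genes are lowest on 344SQ replicate 4, where Grhl1 was at 4.35.

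Grhl3, needed for the epidermal barrier, was dim and in the lowest 25% of genes by mean level. Its values ran from 5.16 to 5.39 in 344SQ, from 5.37 to 5.92 in 393LN and from 5.01 to 5.53 in 393P, and no comparison passed. The change against 393LN was -0.38 ± 0.15 (limma adjusted p = 0.136). Its 2 highest values, 5.92 and 5.81, were on 393LN replicates 3 and 2, where the mean of 12 skin keratinocyte markers was also highest (8.64 and 9.52, against 6.61 to 8.21 on the other arrays). A part of host skin in these values was not tested.

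Ovol1 and Ovol2 were both lower in 344SQ. Ovol1 probe set 1419051_at was at 6.31, 6.31, 5.77 and 6.23 in 344SQ, at 7.90, 7.83, 6.88 and 6.85 in 393LN, and at 7.24, 7.79, 7.96 and 7.45 in 393P. No 344SQ value reached the lowest of 393LN or 393P, and 393LN itself divided into 2 higher and 2 lower arrays. Its change was -1.45 ± 0.26 against 393P and -1.21 ± 0.26 against 393LN, 2.74-fold and 2.31-fold lower (limma adjusted p = 0.00405 and 0.0120). The second Ovol1 probe set was near the floor, at 4.09 to 5.40, with changes of -0.11 and -0.06. Averaged with it, Ovol1 had a change of -0.78 against 393P that did not pass (adjusted p = 0.0575) and one of -0.64 against 393LN (adjusted p = 0.113).

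Ovol2 was at 6.58, 6.66, 6.45 and 6.20 in 344SQ, at 7.40, 7.59, 7.58 and 7.29 in 393LN, and at 7.45, 7.72, 7.33 and 7.71 in 393P. The spread within each line was small, with SDs of 0.20, 0.14 and 0.19, and 344SQ did not overlap 393LN or 393P. The change was -1.08 ± 0.13 against 393P and -0.99 ± 0.13 against 393LN, 2.12-fold and 1.99-fold lower (limma adjusted p = 0.000318 and 0.000732), and both calls held in each alternative that kept the gene. The genes nearest to Ovol1 in pattern were Cnksr1, 4930486L24Rik and Sfn (mean absolute differences 0.162, 0.198 and 0.225 over 12 arrays), and those nearest to Ovol2 were Abhd11, B4galt3 and Pex26 (0.124, 0.131 and 0.144). Each of these 6 was lower in 344SQ than in both other lines on average, with log2 changes from -1.34 to -0.89. They were picked for their likeness to Ovol1 or Ovol2 over these same arrays, which largely fixes such a fall.

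Elf3, an ETS factor of secretory and stressed epithelium, was lower in 344SQ with little spread there. It was at 9.75, 9.74, 9.59 and 9.98 in 344SQ, at 11.37, 11.03, 10.92 and 10.44 in 393LN, and at 10.19, 11.81, 11.43 and 11.61 in 393P. The highest 344SQ value lay below the lowest of 393P, which was on replicate 1, the array with the actin ratio of 1.47. Its change was -1.49 ± 0.30 against 393P, 2.82-fold lower (limma adjusted p = 0.00839), and -1.85 without 393P replicate 1. Against 393LN it was -1.18 ± 0.30 (adjusted p = 0.0288), a call that ended without any of 344SQ replicates 1 to 3 or 393LN replicates 1 to 3, with adjusted p up to 0.0736. Its nearest genes were Susd1, Lrrc26 and Slc25a48 (0.219, 0.241 and 0.245).

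Elf5, a factor of mammary and distal lung epithelium and the chromosomal neighbour of Ehf, did not pass in any comparison. The brighter probe set ran from 6.37 to 7.09 in 344SQ, 6.45 to 6.81 in 393LN and 6.27 to 6.64 in 393P. Its change against 393P was 0.25 ± 0.16 (limma adjusted p = 0.381, 95% interval -0.09 to 0.59), while the dimmer one gave -0.63 (adjusted p = 0.372).

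Klf5 was the gene of the 10 that rose in 344SQ. Its brightest probe set, 1451021_a_at, was at 12.80, 12.78, 12.90 and 12.86 in 344SQ, at 11.38, 11.99, 12.14 and 11.69 in 393LN, and at 12.28, 12.15, 11.89 and 12.18 in 393P. All 344SQ values exceeded all others. The change was 0.71 ± 0.15 against 393P and 1.04 ± 0.15 against 393LN, 1.64-fold and 2.06-fold higher (limma adjusted p = 0.0113 and 0.00133), and no alternative ended either call. A second probe set, 1451739_at, rose against 393LN (0.80 ± 0.15, adjusted p = 0.00774) and had a change of 0.25 against 393P (adjusted p = 0.40). The third was dim, at 4.50 to 6.24, with changes of 0.42 and 0.35 that did not pass. The nearest genes in pattern were Zfp618, Golm1 and Prr15l (0.0992, 0.130 and 0.155).

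Klf4 was at like levels in 344SQ and 393P and lower in 393LN without passing the test. It was at 12.16, 11.70, 11.49 and 11.67 in 344SQ, at 11.58, 11.35, 10.98 and 10.73 in 393LN, and at 11.87, 11.70, 11.73 and 11.78 in 393P. The 4 arrays of 393LN lay below all 4 of 393P. The change of 344SQ against 393P was -0.01 ± 0.18 (limma adjusted p = 0.978, 95% interval -0.41 to 0.38). That against 393LN was 0.59 ± 0.18 (adjusted p = 0.0600), which passed under 5 of the alternatives, and that of 393LN against 393P was -0.61 ± 0.18 (adjusted p = 0.112). The other Klf4 probe set had changes of 0.03, 0.62 and -0.58 in the same order. Of 10 endothelial markers and 9 monocyte and macrophage markers, 0 passed in limma's test in 393LN against either line. At an unadjusted p under 0.05 there were 0 in 393LN against 393P, while 3 monocyte and macrophage markers were lower in 344SQ than in 393LN. Against 393P, where the log2 change of Klf4 was -0.01, 5 of the 9 were lower in 344SQ and 1 higher at that p. Cd14 fell there by 0.75 (limma adjusted p = 0.0385). No share of all genes at the unadjusted p stands beside these counts. The endothelial list mean was 9.07 to 9.54 in 393LN and 8.98 to 9.50 in 393P. The monocyte and macrophage mean was 9.75 to 10.53 in 344SQ, 10.08 to 10.62 in 393LN and 10.11 to 10.86 in 393P, and the part of either cell type in the Klf4 values was not tested.

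**Figure D4:**
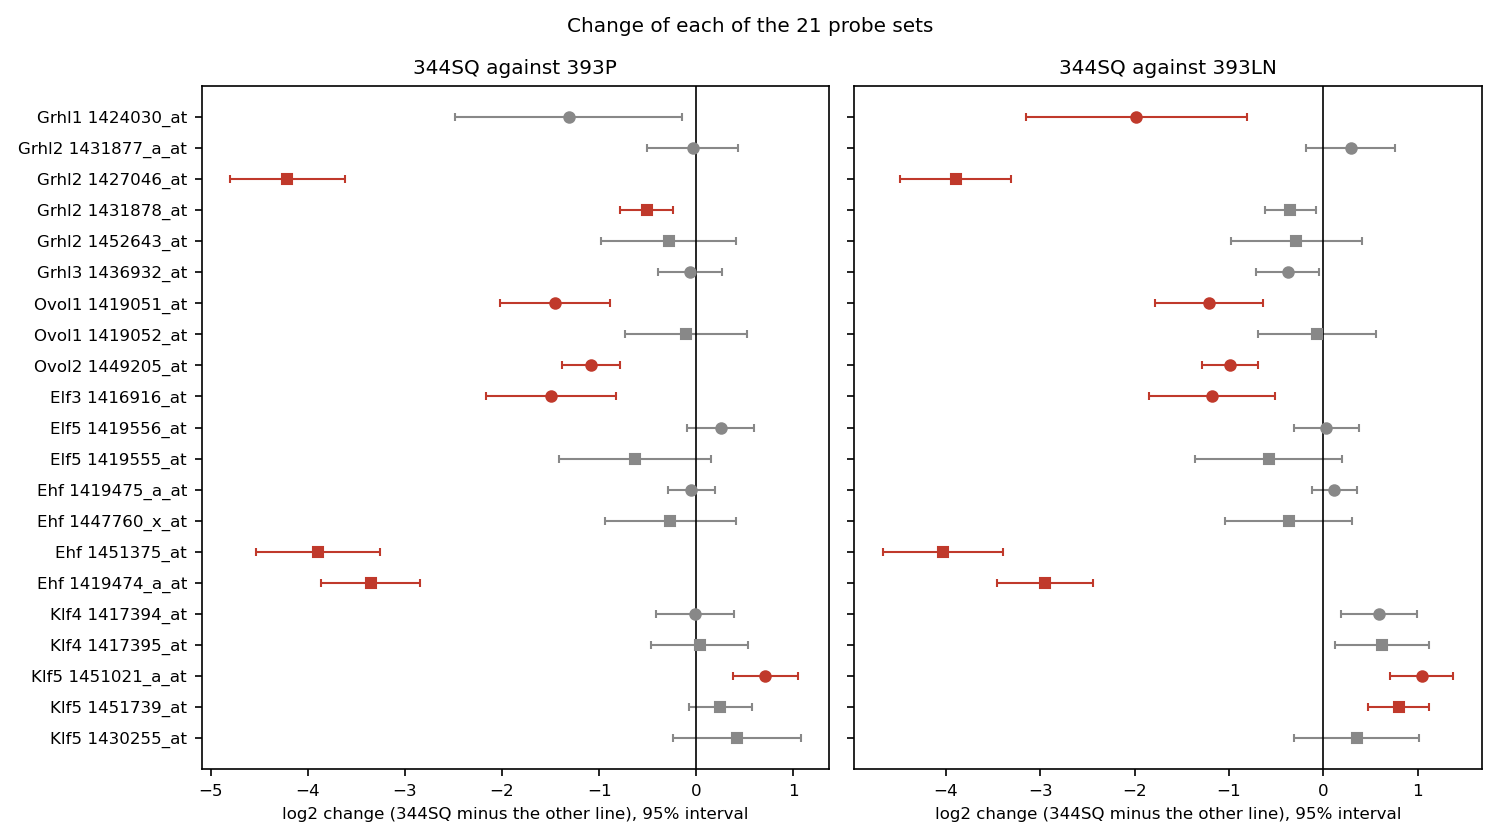
Log2 change of each of the 21 probe sets in 344SQ minus 393P (left) and 344SQ minus 393LN (right), with 95% intervals; circles are the brightest probe set of a gene, squares the others, and red marks an adjusted p under 0.05 over 34945 probe sets. Grhl2 1427046_at at -4.21 and -3.90 and both Ehf probe sets between -4.03 and -2.95 stand farthest to the left, and Klf5 1451021_a_at to the right of 0 in both panels.

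Within 393LN, replicate 4 had the lowest values of Grhl2 1427046_at, both falling Ehf probe sets, Grhl1, Grhl3, Ovol1, Ovol2, Elf3, Elf5 and Klf4. The brightest probe sets of Grhl2 and Ehf, at 9.02 and 10.13 there, were not lowest. That of Klf5 was lowest on replicate 1, at 11.38. On replicate 4 the mean of 35 epithelial target genes was 10.23, against 10.61 to 10.77 on the other 393LN arrays. The mean of 10 fibroblast markers was 11.92, against 11.38 to 11.61. Fibroblast markers had a median change of 0.38 in 344SQ against 393P and 0.48 against 393LN, with 0 of 10 past limma's adjusted threshold. At an unadjusted p under 0.05 (limma), 5 of 10 were higher in each comparison and 0 lower, with no share of all genes at that p beside it. Fibroblast marker means were 11.91 to 12.18 in 344SQ, 11.38 to 11.92 in 393LN and 11.29 to 11.86 in 393P. The part of fibroblasts in the falls of the factors was not tested.

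Genes on which these factors are known to act, or which share their epithelial distribution, fell widely in 344SQ. The list was chosen with earlier results of these data known, so its counts are no independent test. Of 35 such genes measured, 22 were lower and 0 higher against 393P (limma), where 5.62% of all genes were lower. Against 393LN 18 were lower and 0 higher, where 6.92% of all genes were lower. The median log2 changes of the list were -1.32 and -1.17. The listed genes with the smallest p against 393P were the splicing regulator Esrp1 (-7.06 ± 0.24), the matriptase gene St14 (-4.35 ± 0.18), the small GTPase gene Rab25 (-5.71 ± 0.25) and the adaptor subunit gene Ap1m2 (-4.30 ± 0.20). Against 393P, St14 fell by about the same amount as Grhl2 1427046_at and was the gene nearest to it in pattern (mean absolute difference 0.286), before Atp2c2 (0.329) and Smim22 (0.374). Ehf 1451375_at was nearest to Serpinb5, Ap1m2 and Bspry (0.279, 0.290 and 0.295), and Ehf 1419474_a_at to Kdf1, 2610528J11Rik and Bspry (0.208, 0.247 and 0.262). These 3 probe sets were chosen for this after their values were seen, and picking genes for likeness to them largely fixes a like fall. The fall was not general: Cdh1, the E-cadherin gene and a known Grhl2 target, had a change of 0.12 ± 0.13 against 393P (adjusted p = 0.635).

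**Figure D5:**
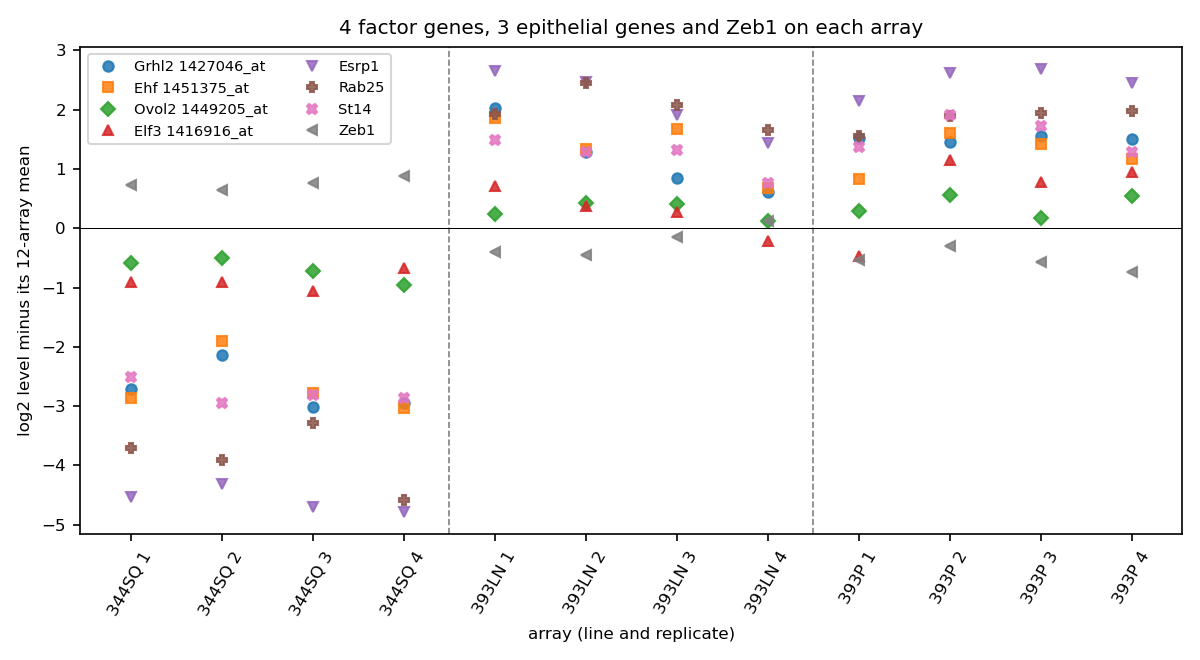
Level of Grhl2 1427046_at and Ehf 1451375_at, both shown because they fell, of the brightest probe sets of Ovol2 and Elf3, and of 3 epithelial genes and Zeb1 on each of the 12 arrays, each as its log2 level minus its mean over the arrays; dashed lines part the lines. On the 4 arrays of 344SQ these 4 factor probe sets and the epithelial genes lie below 0 and Zeb1 above it, with Esrp1 farthest down and Ovol2 and Elf3 the least far down.

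Among 16 transcription factors of mesenchymal transition, 5 were higher and 0 lower in 344SQ against 393P, with a median of 0.42, and 2 were higher against 393LN. Across all genes 4.86% and 3.99% were higher in these comparisons. At an unadjusted p under 0.05 (limma), 8 were higher and 0 lower against 393P, and 6 higher and 2 lower against 393LN. The shares of all genes above are for adjusted p, and none at the unadjusted p is given here. Zeb1, the repressor that Grhl2 and Ovol2 are known to oppose, was at 10.18, 10.09, 10.20 and 10.33 in 344SQ, at 9.04, 8.99, 9.29 and 9.57 in 393LN, and at 8.91, 9.15, 8.88 and 8.71 in 393P. It rose by 1.29 ± 0.14 against 393P and 0.98 ± 0.14 against 393LN (limma adjusted p = 0.000122 and 0.00116). Zeb1 is also expressed by fibroblasts, whose marker means are given above. Snai2, Twist1 and Prrx1 were higher against 393P by 0.94, 1.02 and 0.81. The count against 393P was 2 without 344SQ replicate 2 or 3 or 393P replicate 4 and 3 without 344SQ replicate 1, and that against 393LN was 1 without 393LN replicate 3.

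Epidermal barrier genes, many of them known targets of Grhl3 and Klf4, moved in few cases. Of 25 measured, 4 were lower in 344SQ against 393P: involucrin, Ivl (-1.97 ± 0.25), the crosslinking enzyme gene Tgm1 (-1.23 ± 0.21), the keratin gene Krt6a (-3.76 ± 0.64) and loricrin, Lor (-1.03 ± 0.30). Across all genes 5.62% were lower in that comparison. The median over the list was -0.13, and without any of 393P replicates 2 to 4 the count was 2. Against 393LN 4 were lower and 1 higher, where 6.92% of all genes were lower and 3.99% higher. The total was 3 without 344SQ replicate 2 or 4 or 393LN replicate 1, and 2 without 393LN replicate 3. Loricrin is also one of the 12 skin keratinocyte markers, of which 1 was lower in each comparison of 344SQ. The median change of those markers was -1.04 against 393LN and -0.07 against 393P, beside -0.31 and -0.13 for the barrier genes, and the part of host skin in these falls was not tested.

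None of the listed relatives of the 10 genes passed as lower in 344SQ on its brightest probe set. Results on their other probe sets are not given here. Across all genes 5.62% were lower and 4.86% higher against 393P, and 6.92% lower and 3.99% higher against 393LN. Beside these shares, 0 lower among 38 relatives does not set the 10 genes apart. Of 38 other grainyhead-related, ETS and Klf genes measured, 0 were lower and 4 higher in 344SQ against 393P: Klf12 (1.81 ± 0.24), the grainyhead-related gene Tfcp2l1 (1.91 ± 0.41), Gabpa (0.54 ± 0.13) and Elk4 (0.59 ± 0.15). At an unadjusted p under 0.05 there were 4 lower and 6 higher (limma), with no share of all genes at that p beside it. Klf12 and Tfcp2l1 were higher against 393LN as well, by 1.28 and 2.02. The list's median was 0.07 against 393P, and without 344SQ replicate 3 the count was 2. Against 393LN 3 relatives were higher, or 5 without 393P replicate 1. Of 25 other epithelial transcription factors measured, 3 were higher and 1 lower against 393P, where 4.86% of all genes were higher and 5.62% lower: Foxa2, a foregut endoderm factor, by 4.89 ± 0.44, the liver and gut factor Hnf4a by 1.78 ± 0.45, Creb3l1 by 1.25 ± 0.32, and Foxa1, which fell by 0.45. Their median was 0.00. The total of 4 was 1 without 344SQ replicate 1 or 2 or 393P replicate 3, and 2 without 344SQ replicate 4 or 393P replicate 2. Against 393LN Foxa2 and Hnf4a were higher and Foxa1 and Sox2 lower, and 2 of these passed without 344SQ, 393LN or 393P replicate 2.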

How the data were processed

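Affymetrix arrays of 1 colour read the RNA of 12 tumour samples. The values used are the deposited probe set intensities on a linear scale; the summarisation and normalization are not given in the sources used here. Values were taken as log2(intensity + 16). Of 45101 probe sets, the 34945 with 1 gene symbol and no control role were used, and for each of 18193 genes the brightest on average over the 12 arrays was tested. The 3 line means were fitted together with limma 3.58.1 in R 4.3.3 (lmFit, eBayes, 9 residual degrees of freedom), two-sided, with Benjamini-Hochberg adjustment over all genes; single probe sets were fitted likewise and adjusted over all of them. Scripts were tested on simulated data. The rule named every member, up to 4 genes of each list with the smallest p against 393P and up to 2 called the other way, and the 3 genes nearest in pattern to each member that passed with a log2 change of at least 1. Other genes were named after their values were seen. The members and lists were chosen with earlier results of these data known. Other value columns numbered 0. Alternatives were other scalings, pseudocounts, filters, probe set choices, priors and sets of arrays.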

Additional observations from a re-analysis of the deposited data

Results flagged for a closer look

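Within a line of 4 arrays, 6 values stood apart from the other 3 by Dixon's 95% criterion, among 123 sets of 4 examined, where chance gives about 1 in 20. Grhl2 1431877_a_at was at 9.95 on 393P replicate 1 (9.01 to 9.14 on the others) and at 8.80 on 393LN replicate 3 (9.0 to 9.02). Ovol1 was at 5.77 on 344SQ replicate 3 (6.23 to 6.31), and Ehf 1447760_x_at at 10.69 on 393LN replicate 3 (9.45 to 9.64). Klf5 1451739_at was at 9.19 on 393LN replicate 2 (8.77 to 8.84), and Rab25 at 11.49 on 393P replicate 1 (11.83 to 11.90).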

How the results depend on the processing

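The choice of probe set decided Grhl2 and Ehf. With the mean of a gene's probe sets, Grhl2 and Ehf had changes of -1.06 and -1.81 in 344SQ against 393LN, and with the most variable probe set -3.90 and -4.03, all lower where the brightest gave 0.29 and 0.12. Against 393P the same settings gave -1.26 and -1.89, then -4.21 and -3.89. With the dimmest 50% of genes left out, which removes 5 of the 10, 2 passed against 393P and 3 against 393LN. The 5 removed were Grhl1, Grhl3, Ovol1, Ovol2 and Elf5. Those that passed were Elf3, lower, and Klf5, higher, in both comparisons, and Klf4, higher, against 393LN. Leaving out 1 array gave 3 to 5 genes against 393LN, with 3 without 344SQ replicate 2 or 3 or 393LN replicate 2, and 4 against 393P each time. Between 393LN and 393P the count was 0 in all 22 alternatives. Over all genes, leaving out 1 array moved the counts against 393P (1023 lower, 884 higher) to 653 to 1057 and 562 to 896, those against 393LN (1259 and 725) to 747 to 1559 and 431 to 925, and those between 393LN and 393P (127 and 319) to 48 to 168 and 107 to 312. No paired analysis was possible because the labels give no pairing between lines. The labels give no replicate numbers either, and those used here follow the order in which the samples of a line are listed. Near the floor of 4.09, as on the dim probe sets of Grhl2, Grhl3 and Ovol1, the log2 scale understates changes.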
